A study of Mus musculus with 9 samples.

Results

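The genes described here are 43 genes of DNA replication, chosen by name among the 12388 gene symbols in the tables. They cover origin licensing, the replicative helicase, polymerases and primase, the sliding clamp and its loader, single-strand binding and Okazaki fragment joining, nucleotide supply, and entry into S phase. A row was found for 41 of them in each table. Gins2, a helicase subunit, and Cdt1, a licensing factor, are not analysed here.

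RNA came from embryonic retina of CD-1 mice, taken on the embryonic day E12.5, in 9 samples that form 3 groups of 3. All of them carry a GFP allele at Neurog2, the gene of a basic helix-loop-helix factor that starts neuron formation. The heterozygote group (Neurog2GFP/+) keeps 1 intact allele, the mutant group (Neurog2GFP/GFP) carries GFP on each chromosome, and the third genotype (Neurog2GFP/Mash1KI, the knock-in group) pairs the GFP allele with a Mash1 knock-in. GFP-positive optic cups were taken in pairs and no cell sort is named, so the values are of whole tissue, in which more cells of a type and more RNA per cell cannot be told apart. The deposited tables give 1 pooled RPKM (reads scaled by transcript length and library size) per transcript and group. They hold no value per sample, so neither a spread between replicates nor the depth per sample can be printed and overlap between groups cannot be shown; the error enters through the authors' own Cuffdiff test. A transcript is called changed at a deposited q of 0.05 or less, and a gene is called if any of its transcripts is. A gene's level is the sum of the RPKM of its listed transcripts. Whether samples of 1 genotype came from separate litters is not stated, so the p-values measure only the spread between these samples, which may be technical. The knock-in titles carry another number than those of the other groups, and a litter or batch behind that number could not be told apart from genotype.

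Neurog2 was at 30.2 RPKM in heterozygotes and 36.2 RPKM in labelled mutants. In the second table it was at 35.5 RPKM in labelled mutants and 112 RPKM in labelled knock-ins, where it was called higher. It was thus not lower in either group labelled as lacking an intact allele, so groups are named below by their labels. The groups also differed in other ways. Kdm5d and Eif2s3y, on the Y chromosome, were at 12.8 and 21.9 RPKM in heterozygotes, at 19.3 and 28.6 RPKM in labelled knock-ins, and listed at 0 in labelled mutants in both tables. Xist was at 184 RPKM in heterozygotes against 505 RPKM, and at 496 RPKM against 174 RPKM in the second table, so sex and label cannot be told apart. Pola1 is the member gene that lies on the X chromosome.

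Before a cell divides, the origin recognition complex with Cdc6 and Cdt1 loads the Mcm2 to Mcm7 ring onto DNA in G1, and geminin blocks loading once S phase has begun. Cyclin E and the E2F factors then start S phase, Cdc45 and the GINS complex turn the ring into an active helicase, and primase, the polymerases, the clamp Pcna and DNA ligase I copy both strands. In the embryonic retina these genes are active in dividing progenitors and are shut off in neurons that have left the cell cycle. Many carry E2F sites in their promoters.

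Such sites were looked for in the 250 bases upstream of the RefSeq start of each gene (build GRCm38.p6), as the 8-letter words TTTCCCGC, TTTCGCGC, TTTGCCGC and TTTGGCGC on either strand. These words can overlap each other. A promoter was found for 32 of the 41 measured members. None was found for the other 9, among them Gmnn, the geminin gene. Of these 32 genes 9 hold at least 1 word in a promoter, or 28.1%. Fen1, Lig1 and Mcm7 have several RefSeq starts, and for such genes the promoter with the most matches was counted. The share was 2.16% over all 27025 genes with a RefSeq promoter, and 4.01% over those measured in the first comparison. Of 41 genes with a promoter from a second list of replication genes, described further on, 26.8% hold a word. The letters CCAAT, on either strand, are in a promoter of 65.6% of the members, 56.1% of the second list, 41.2% of measured genes and 37.5% of all genes. Median GC content was 59.6% in the member promoters, 52.4% in all and 60.4% in those of measured genes. The helicase genes with a word are shown because this class has the most such genes, 4 of its 8 with a promoter. Each is printed 5′ to 3′ on the strand of its gene, with the words in capitals.
Mcm5: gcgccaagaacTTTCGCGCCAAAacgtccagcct
Mcm6: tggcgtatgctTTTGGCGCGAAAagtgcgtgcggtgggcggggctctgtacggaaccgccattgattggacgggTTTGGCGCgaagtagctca
Mcm7: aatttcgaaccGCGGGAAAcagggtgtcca
Gins3: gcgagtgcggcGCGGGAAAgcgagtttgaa
The Mcm5 window (chr8:75109345-75109378, plus strand) holds 2 overlapping words, the nearer of which ends 142 bases before the start. The Mcm6 window (chr1:128359734-128359826, minus strand) holds another overlapping pair and a separate word that ends 40 bases before the start. Mcm7 (chr5:138172030-138172059, minus strand) and Gins3 (chr8:95633507-95633536, plus strand) have 1 word each, in the reverse orientation, and both of these windows lie in annotated exon sequence outside the coding sequence (GENCODE M21), whereas the Mcm5 and Mcm6 windows lie in no annotated gene. A matching word is a description of the sequence and does not show that a factor binds there.

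What loss of the other Neurog2 allele changes is the question of the first table, labelled mutants against heterozygotes. Geminin was the one replication gene called, and it rose 1.51-fold. Of the 41 members 36 had a higher summed level in labelled mutants and 5 a lower one, with a median log2 ratio of 0.23, where 54.7% of all genes were above 0 and their median was 0.03. The other 40 did not pass the test. The share of all genes called is 1.34%, with 0.245% called higher and 1.09% called lower, so 1 call among 41 is not in itself a result about the members. At an unadjusted p of 0.05 or less there were 12 members with a higher transcript and 1 with a lower one, beside 4.85% and 6.21% of all genes (10.9% in either direction).

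**Figure D1:**
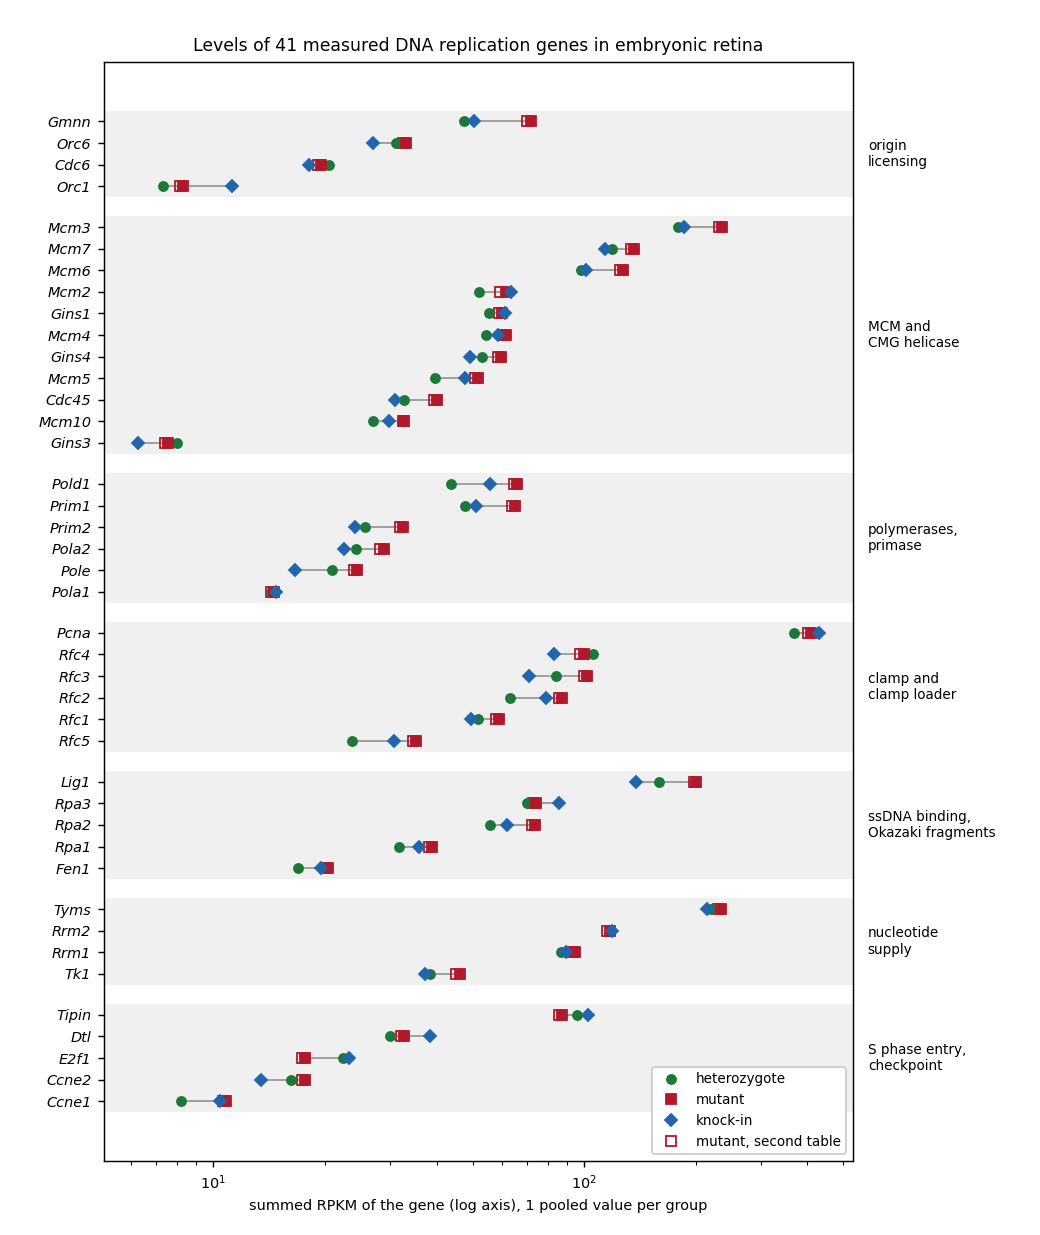
Summed RPKM (log axis) of the 41 measured replication genes, grouped by role, with 1 pooled value for each group; circles are heterozygote, squares mutant (filled, first table; open, second table) and diamonds knock-in. Levels run from the low values of Gins3 to those of Pcna, and the mutant-labelled square lies to the right of the heterozygote circle for 36 of 41 genes.

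Levels differed widely between members. Pcna, the ring that tethers polymerases to DNA, was the most abundant, with a mean of 402 RPKM over the groups, and Gins3 the least abundant at 7.27 RPKM. The median member was at 54.0 RPKM. The lowest summed level of any member in any group was 6.27 RPKM (Gins3). Rows, which are single transcripts, reach down to 0.906 and 1.04 RPKM in the higher of their groups. Some member transcripts lie near that floor, such as 1 of Lig1 at 0.0572 RPKM in heterozygotes and 1.11 RPKM in labelled mutants.

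Among the origin licensing genes, Gmnn (geminin; chr13:24751845-24761923) was at 47.4 RPKM in heterozygotes and 71.7 RPKM in labelled mutants. This rise of 0.60 on the log2 scale was called in the authors' deposited table (p = 0.00015, q = 0.0286). Orc1 and Orc6, subunits of the origin recognition complex, were at 7.33 and 31.2 RPKM in heterozygotes and at 8.27 and 33.1 RPKM in labelled mutants. Cdc6, which helps load the ring, was at 20.5 and 19.5 RPKM. So within this class the inhibitor of licensing stood apart in its ratio from the 3 measured loading genes, whose ratios lay between -0.07 and 0.17; the difference between genes was not tested.

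In the helicase class 10 of 11 measured genes were higher in labelled mutants and none was called (median log2 ratio 0.23). Mcm3, the most abundant ring subunit, was at 179 RPKM in heterozygotes and 236 RPKM in labelled mutants, the highest ratio of the class (0.40; lowest p of a transcript 0.0945, q = 0.993 in the authors' deposited table). Mcm6 was at 97.9 and 127 RPKM and Mcm5 at 39.7 and 51.8 RPKM. Their unadjusted p was 0.00775 and 0.0093 in the authors' deposited table, with q of 0.409 and 0.446. Mcm7, the next in abundance, was at 119 and 136 RPKM, Mcm2 at 52.2 and 61.4 RPKM, and Mcm4 at 54.2 and 61.6 RPKM. The 6 subunits of the ring are used in equal number, yet their summed RPKM differed several-fold within every group, and all 6 were higher in labelled mutants. Cdc45, which joins the ring in the active helicase, was at 32.8 and 40.1 RPKM, and Mcm10, which helps to activate it, at 26.9 and 32.7 RPKM. Of the GINS subunits, Gins1 was at 55.2 and 60.1 RPKM and Gins4 at 53.1 and 59.5 RPKM. Gins3 was the exception in direction, at 7.99 and 7.56 RPKM.

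All 6 polymerase and primase genes were higher (median 0.30) and none was called. Pold1, the catalytic subunit of polymerase delta, was at 43.6 RPKM in heterozygotes and 65.8 RPKM in labelled mutants, a ratio of 0.59. Only 1 of its 5 listed transcripts, from 20.7 to 36.7 RPKM, had a p under 0.05 (p = 0.0263, q = 0.754 in the authors' deposited table). Both primase subunits were higher, Prim1 from 47.7 to 65.2 RPKM (p = 0.00315, q = 0.242 in the authors' deposited table) and Prim2 from 25.6 to 32.5 RPKM (p = 0.0272, q = 0.761 there). Pola2, a subunit of the polymerase that extends primers, was at 24.2 and 28.8 RPKM, and Pole, which copies the leading strand, at 20.9 and 24.4 RPKM. Pola1, the catalytic partner of Pola2 and the X-linked member, was at 14.3 and 14.6 RPKM. Without it, the median over the other 40 members was 0.23.

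The clamp and its loader gave 5 of 6 genes higher (median 0.23) and no call. Pcna was at 367 RPKM in heterozygotes and 410 RPKM in labelled mutants. Rfc4, the most abundant loader subunit, was at 105 and 99.6 RPKM, the only one of the class that was lower. The other loader subunits were Rfc3 at 83.8 and 102 RPKM, Rfc2 at 63.2 and 87.4 RPKM, Rfc1 at 51.9 and 59.1 RPKM, and Rfc5 at 23.7 and 35.2 RPKM. The ratio of Rfc5, 0.57, was the highest of the class, but no transcript of it had a p below 0.381 in the authors' deposited table. Rfc2 had 1 transcript with an adjusted p (q) of 0.593 in the authors' deposited Cuffdiff table, p = 0.0158 before adjustment.

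The genes that coat single strands and join Okazaki fragments were all higher, 5 of 5 (median 0.30), with no call. Lig1, DNA ligase I, was at 159 RPKM in heterozygotes and 201 RPKM in labelled mutants. The coat subunits were Rpa3 at 70.0 and 74.2 RPKM, Rpa2 at 55.6 and 73.6 RPKM, and Rpa1 at 31.6 and 38.9 RPKM. Rpa2 had the lowest unadjusted p of the class (p = 0.0056, q = 0.335 in the authors' deposited table). Fen1, the flap nuclease, was at 16.9 and 20.4 RPKM. Nucleotide supply was nearest to no difference, with 4 of 4 higher and a median of 0.11. Tyms, which makes thymidylate, was at 220 and 234 RPKM. The ribonucleotide reductase subunits Rrm2 and Rrm1 were at 118 and 86.8 RPKM in heterozygotes and at 118 and 94.7 RPKM in labelled mutants. Rrm2 thus counts as higher by a log2 ratio of only 0.0011. Its main transcript was at 111 and 118 RPKM and its other one at 6.72 and 0.000921 RPKM, neither called. Tk1, the salvage kinase for thymidine, was at 38.5 and 46.1 RPKM.

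The class of S phase entry and checkpoint genes did not go 1 way. E2f1, an activating E2F factor, was at 22.4 RPKM in heterozygotes and 17.7 RPKM in labelled mutants, the lowest ratio of all members (-0.35; p = 0.0282, q = 0.773 in the authors' deposited table). Tipin, which stabilises stalled forks, was at 95.9 and 87.2 RPKM. Ccne1, a cyclin E gene, was at 8.19 and 10.8 RPKM, with p = 0.0288 and q = 0.782 in the authors' deposited table. Ccne2 was at 16.2 and 17.7 RPKM, and Dtl, an adaptor of the ligase that degrades Cdt1 in S phase, at 30.0 and 32.7 RPKM. Tipin and E2f1 were thus below heterozygotes where most genes of the fork were above them.

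**Figure D2:**
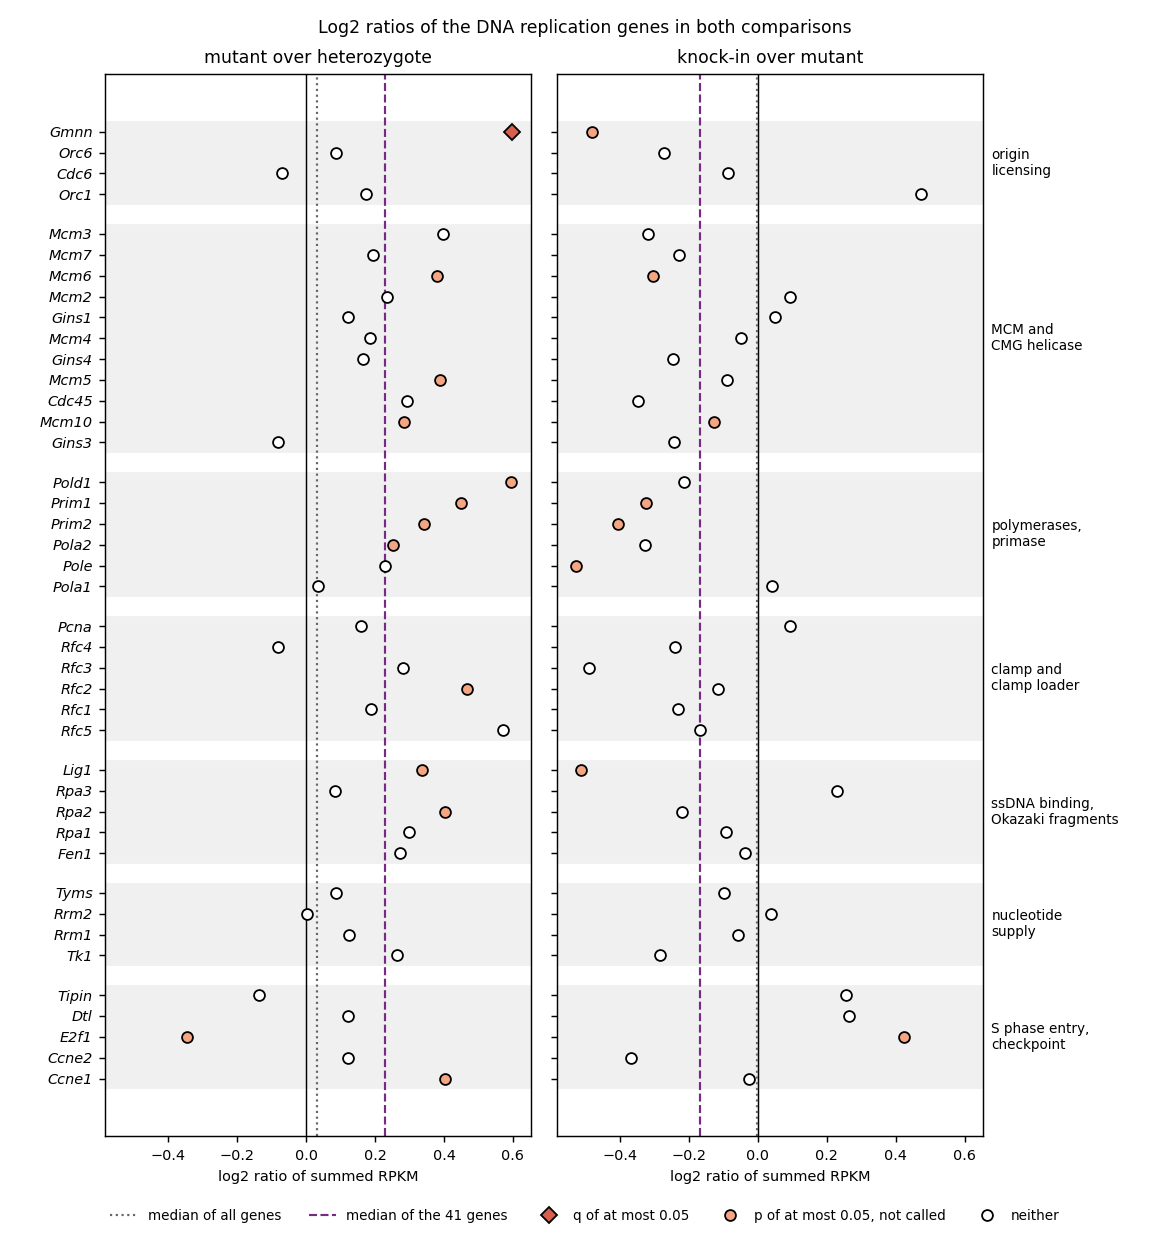
Log2 ratio of summed RPKM for each of the 41 genes in the 2 comparisons, with dotted lines at the median of all genes and dashed lines at the median of the 41 (0.23 and -0.17). The diamond marks the one called gene, Gmnn, at 0.60, and shaded circles mark genes with a transcript at a p of 0.05 or less that was not called.

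What the Mash1 knock-in changes beside a GFP allele is the question of the second table, labelled knock-ins against labelled mutants. Cuffdiff's test called none of the 41 members, against 1.67% of all genes (1.03% higher and 0.634% lower). Of the 41, 31 had a lower summed level in labelled knock-ins and 10 a higher one, with a median log2 ratio of -0.17, where 50.3% of all genes were below 0, 49.7% above, and their median was -0.0021. At an unadjusted p of 0.05 or less there were 7 members with a lower transcript and 1 with a higher one, beside 6.46% and 8.57% of all genes (14.6% in either direction). The mutant-labelled samples stand in both tables, so a chance deviation of that group would enter the 2 comparisons with opposite sign, and the second is no independent check of the first.

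Gmnn was at 70.3 RPKM in labelled mutants and 50.3 RPKM in labelled knock-ins, a ratio of -0.48 short of the call threshold (p = 0.0017, q = 0.127 in the authors' deposited table). That q was the lowest of any member in this table. Orc1 was at 8.11 and 11.3 RPKM, the highest ratio of all members (0.47), but 1 of its 3 listed transcripts was at 0 in labelled mutants and at 4.67 RPKM in the other (p = 0.21, q = 0.783 in the authors' deposited table). Orc6 was at 32.5 and 26.9 RPKM, and Cdc6 at 19.2 and 18.1 RPKM.

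In the helicase class 9 of 11 genes were lower (median -0.23). Mcm3 was at 231 RPKM in labelled mutants and 186 RPKM in labelled knock-ins, Mcm7 at 134 and 114 RPKM, and Mcm6 at 125 and 101 RPKM. Mcm6 had a transcript with p = 0.0422 and q = 0.669 in the authors' deposited table. Cdc45, at 39.4 and 31.0 RPKM, had the lowest ratio of the class (-0.35). The other ring subunits differed less, Mcm5 at 50.9 and 47.8 RPKM, Mcm4 at 60.4 and 58.4 RPKM, and Mcm2 at 59.5 and 63.4 RPKM, the last of these the highest ratio of the class (0.09). Mcm10 was at 32.4 and 29.7 RPKM, Gins4 at 58.4 and 49.3 RPKM, Gins3 at 7.41 and 6.27 RPKM, and Gins1 at 59.0 and 61.0 RPKM. The ratios of the ring subunits ranged from -0.32 for Mcm3 to 0.09 for Mcm2 in this comparison. None was called, and the difference between genes was not tested.

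The polymerases and primase had the lowest class median (-0.32, 5 of 6 lower). Pole was at 24.0 RPKM in labelled mutants and 16.6 RPKM in labelled knock-ins, the lowest ratio of all members (-0.53; p = 0.0313, q = 0.591 in the authors' deposited table). Prim2 was at 31.9 and 24.1 RPKM (p = 0.00665, q = 0.285 in the authors' deposited table), and Prim1 at 63.9 and 51.1 RPKM. Pold1 was at 64.6 and 55.7 RPKM and Pola2 at 28.2 and 22.5 RPKM. Pola1 was again level, at 14.3 and 14.7 RPKM.

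Lig1 was at 197 and 138 RPKM, a ratio of -0.51, with 1 transcript at p = 0.0262 and q = 0.551 in the authors' deposited table. Rpa3, at 72.8 and 85.3 RPKM, was the one gene of its class that was higher, while Rpa2 was at 72.2 and 62.0 RPKM, Rpa1 at 38.2 and 35.8 RPKM, and Fen1 at 20.1 and 19.5 RPKM. Among the loader subunits Rfc3 was lowest in ratio (-0.49), at 99.8 and 71.1 RPKM. Rfc4 was at 97.7 and 82.8 RPKM, Rfc1 at 58.0 and 49.4 RPKM, Rfc2 at 85.7 and 79.1 RPKM, and Rfc5 at 34.5 and 30.8 RPKM. Pcna was higher, at 402 and 429 RPKM. Of the nucleotide supply genes, Rrm2 at 116 and 119 RPKM, Rrm1 at 92.9 and 89.3 RPKM, and Tyms at 230 and 215 RPKM differed little in sum, and Tk1 was at 45.3 and 37.2 RPKM. The main transcript of Rrm2 was at 116 and 105 RPKM and its other one at 0.00105 and 13.7 RPKM, neither called.

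E2f1 was the member with the lowest p on the higher side, at 17.3 RPKM in labelled mutants and 23.2 RPKM in labelled knock-ins (log2 ratio 0.42; p = 0.00565, q = 0.258 in the authors' deposited table). Tipin was at 85.6 and 102 RPKM and Dtl at 32.1 and 38.5 RPKM, both higher. Ccne1 was at 10.6 and 10.4 RPKM, and Ccne2 at 17.3 and 13.4 RPKM. This is the one class with a median above 0 (0.26), and 3 of its 5 genes were higher.

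The knock-in-labelled and heterozygote levels can be set side by side across the tables only as a description. The tables were normalized separately, and for the 5047 genes listed with 1 transcript in each, the mutant value of the first table exceeded that of the second by a median of 0.03 on the log2 scale. The log2 ratio of knock-in-labelled over heterozygote level had a median of 0.05 over the 41 members, with 25 above 0 and 16 below, beside a median of -0.0034 over 11803 genes. Members went both ways, and the median size of the ratio without its sign was 0.16. No test is given, since no table holds that pair. Gmnn was at 47.4 RPKM in heterozygotes and 50.3 RPKM in labelled knock-ins, and E2f1 at 22.4 and 23.2 RPKM. The farthest apart were Orc1 (0.62) and Rfc5 (0.38) above, and Gins3 (-0.35) and Rfc4 (-0.35) below. The Orc1 value sets 2 transcripts of the first table against 3 of the second. The one listed only in the second was at 4.67 RPKM in labelled knock-ins. The 2 listed in both were at 0.452 and 6.13 RPKM there, beside their heterozygote sum of 7.33 RPKM. The Orc1 ratio above 0 thus rests on the transcript without a heterozygote value.

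Of the 41 genes, 26 have several listed transcripts in at least 1 table, and in these single transcripts did not always follow the sum. Transcripts were matched between tables by gene and by their mutant value, which paired 88 of the 93 in the first table and 95 in the second. Mcm10 has 3 matched transcripts. One was at 7.18 RPKM in heterozygotes, 12.1 RPKM in labelled mutants and 6.43 RPKM in labelled knock-ins, with p = 0.032 and p = 0.0345 in the authors' deposited tables (q = 0.819 and 0.616). The other two were nearly level, at 11.7, 12.4 and 13.2 RPKM and at 7.99, 8.19 and 8.43 RPKM. For Rfc2 the main transcript, at 44.4, 63.3 and 48.4 RPKM, stood against 3 minor ones that were each highest in labelled knock-ins. For Mcm7 the 2 main transcripts were at 65.0, 78.6 and 81.7 RPKM and at 49.4, 56.0 and 28.4 RPKM, so the lower sum in labelled knock-ins came from 1 of them. Mcm6 differed from these, since both of its transcripts were highest in labelled mutants, the main one at 67.4, 89.4 and 71.2 RPKM. How reads were divided among the transcripts of a gene was set by the authors' assembly, and no transcript of a member other than Gmnn was called.

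**Figure D3:**
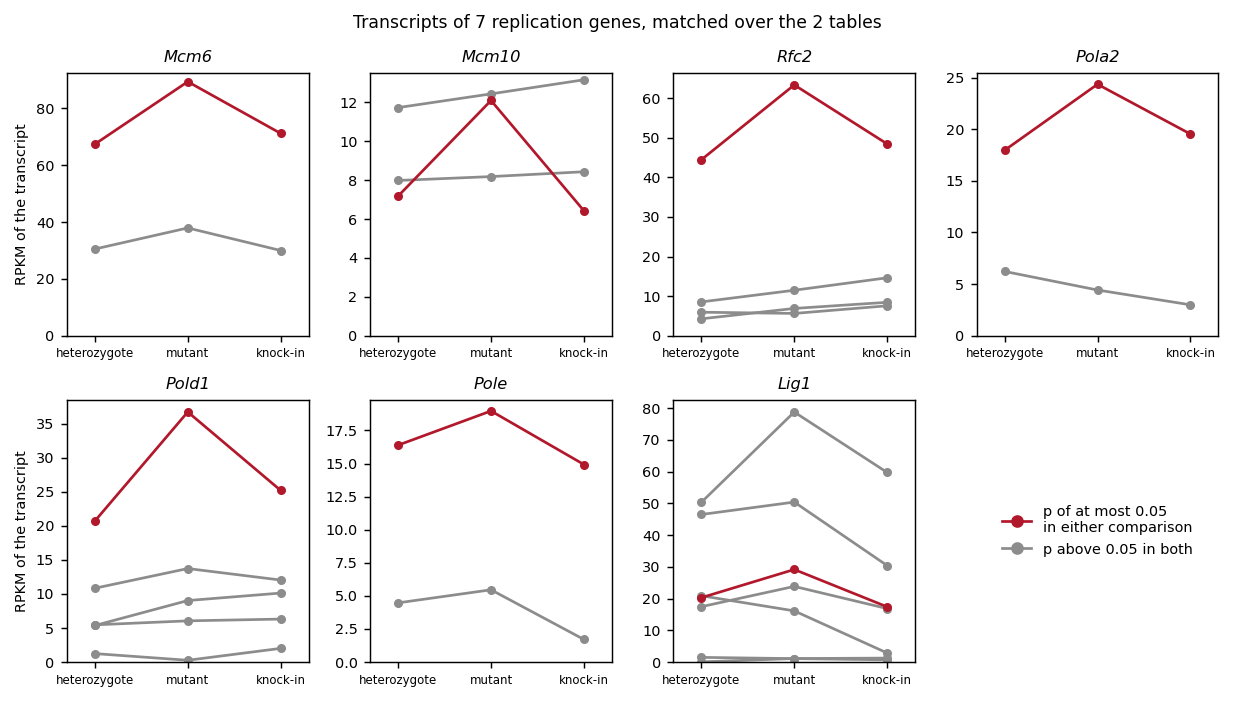
RPKM of matched transcripts (linear axes from 0) in the heterozygote, mutant and knock-in groups, for the 7 genes with several transcripts of which at least 1 had a p of 0.05 or less. In Mcm6 both transcripts peak in the mutant group, whereas in Mcm10 and Rfc2 a single transcript does (red) and others do not.

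A second list of 45 replication genes, all measured in both tables and none a member, was examined in the same way. It holds further subunits (Orc2 to Orc5, Pold2 to Pold4, Pole2 to Pole4), the kinase subunits Cdc7 and Dbf4, the histone chaperones Chaf1a, Chaf1b and Nasp, and E2F and checkpoint genes. Cuffdiff's test called none of them in either comparison. In labelled mutants 34 of 45 were above heterozygotes (median 0.15), beside 54.7% of all genes. At an unadjusted p of 0.05 or less 4 of 45 had a higher and 2 a lower transcript, beside 4.85% and 6.21% of all genes. The ends of the range were Pold2, from 40.0 to 54.8 RPKM, and Clspn, from 26.0 to 22.1 RPKM. In labelled knock-ins 35 of 45 were lower, beside 50.3% of all genes. Their median was -0.11, but -0.0464 when only the most abundant transcript of each gene was used. At that p 3 of 45 had a higher and 7 a lower transcript, beside 8.57% and 6.46% of all genes. The ends were Orc4, at 28.3 and 17.5 RPKM, and Pole4, at 35.5 and 46.0 RPKM. The E2F family genes of this list, singled out after their values were seen, were all 4 on the other side of 0 from E2f1 in both comparisons. E2f7 was at 16.9 and 21.7 RPKM and then at 21.3 and 14.9 RPKM, and E2f3 at 22.5 and 26.5 RPKM and then at 26.0 and 18.5 RPKM. For both of these the lowest p of a transcript was in the second comparison (p = 0.00285 and 0.00515, q = 0.173 and 0.244 in the authors' deposited table). E2f8 was at 24.1 and 25.3 RPKM and then at 24.8 and 16.2 RPKM, and E2f2 at 6.61 and 6.80 RPKM and then at 6.67 and 6.07 RPKM.

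Atad5, which takes Pcna off DNA and was also singled out after its values were seen, had the lowest p of the second list in both comparisons through a trade between its 2 transcripts. That transcript was at 14.3 RPKM in heterozygotes and 6.04 RPKM in labelled mutants (p = 0.0004, q = 0.0614 in the authors' deposited table). The other was at 3.36 and 12.2 RPKM (p = 0.0783, q = 0.993 in the authors' deposited table). In labelled knock-ins the first was back at 13.5 RPKM from 5.93 RPKM (p = 0.00085, q = 0.0807 in the authors' deposited table) and the other at 2.41 RPKM. The summed level was 17.7 and 18.3 RPKM and then 17.9 and 15.9 RPKM.

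Other gene groups differed between the same samples, and their part in the replication values was not tested. The lists used for them were chosen with earlier results of these data known. Neuronal genes were lower in labelled mutants. All 11 measured of 12 neuronal markers had a lower level and 8 were called lower, beside 1.09% of all genes. Their median log2 ratio was -1.03, and their summed level was 975 RPKM against 477 RPKM. None was at 0 in any group. All 12 retinal progenitor markers were higher in labelled mutants (median 0.29, summed level 2631 and 3193 RPKM) and none was called. Of 20 genes of mitosis 16 were higher (median 0.10, summed level 2164 and 2292 RPKM), again with no call. The summed level of the 41 replication genes was 2666 RPKM in heterozygotes and 3098 RPKM in labelled mutants. Over all genes the sum was also higher, at 645961 and 697275 RPKM. The replication median thus stood between those of the mitosis and progenitor lists, and differences between lists were not tested.

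In labelled knock-ins all 11 neuronal markers were higher than in labelled mutants (median 0.37, summed level 468 and 626 RPKM) and 1 of them, Pou4f2, was called. Progenitor markers were split 6 and 6 (median -0.02, summed level 3133 and 3048 RPKM) and mitosis genes 10 and 10 (median -0.001, summed level 2249 and 2294 RPKM). The replication genes went from 3039 to 2770 RPKM in sum, and all genes from 686008 to 709790 RPKM. Markers of other tissues were also higher, with all 9 measured of 10 pigment epithelium genes (6 called; summed level 61.7 and 140 RPKM), 4 of 6 lens genes with 1 more from 0 (3 called; 51.9 and 144 RPKM) and all 7 measured of 9 blood genes (2 called; 35.1 and 131 RPKM). Foxe3, a lens factor, was listed at 0 in labelled mutants. Every row of this comparison reached at least 1.04 RPKM in its higher group. Genes below that in labelled mutants could thus be listed only if higher in labelled knock-ins. These were Tyrp1, Mlana, Slc45a2 and Mitf of the pigment list, Foxe3, and Hbb-bh1, Hbb-bt, Hbb-bs, Hba-a1 and Alas2 of the blood list. The direction of these genes was fixed by the listing. The 5 measured of 7 immediate early genes were all lower and 4 were called (124 and 28.2 RPKM). Over all genes 1.03% were called higher and 0.634% lower in this comparison. In the first comparison the same lists held 5, 5, 5 and 5 measured genes with no call, and summed levels of 72.9 and 61.1, 72.2 and 52.5, 30.8 and 34.8, and 105 and 127 RPKM in the order pigment, lens, blood and immediate early. Most of that pigment sum was Otx2, at 56.9 and 43.6 RPKM, while 3 of the 5 pigment genes were higher and 2 lower (median log2 ratio 0.49).

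**Figure D4:**
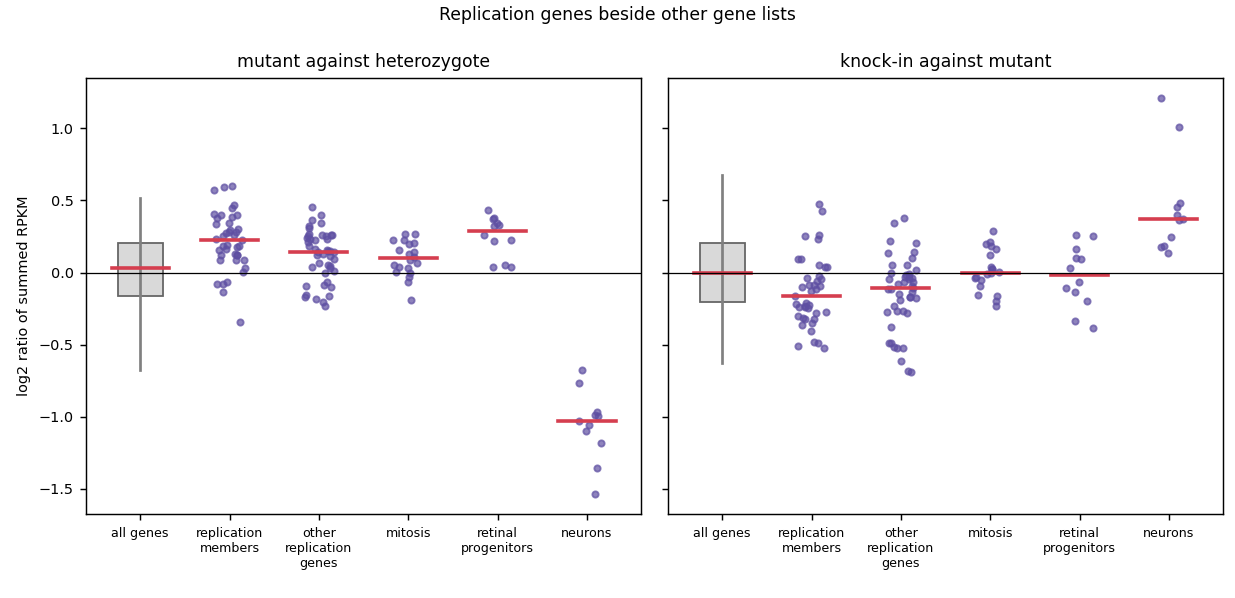
Log2 ratios of summed RPKM for the replication genes, the second replication list and the mitosis, progenitor and neuron lists, 1 point per gene with a red bar at the median; the grey box and line for all genes span the middle 50% and 90%. Replication genes center on 0.23 and -0.17, mitosis genes on 0.10 and -0.001, and neuronal genes on -1.03 and 0.37.

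Some levels are uncertain for a reason in the annotation. In GENCODE M21 the exons of 12 measured members overlap exons of a gene on the opposite strand, such as Rfc2 with Lat2 and Ccne2 with Ints8. The sources used here do not state that reads were counted by strand, so reads from the shared bases cannot be told apart. Pcna and Tyms have named pseudogenes, and reads they share cannot be assigned with certainty. Gmnn overlaps no other gene's exons and has a single listed transcript in each table.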

How the data were processed

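Total RNA of 9 retina samples was sequenced by the authors, with TruSeq libraries per the labels' protocols. Per the submitters' processing notes the tools were Bowtie2, Cufflinks and Cuffdiff, and the build was mm10 (tool versions: not given in the sources used here). For each comparison the authors deposited 1 table, with 27311 and 26586 transcripts. Per the file headers each holds an RPKM value per group and transcript, a p-value and a q-value. The lowest higher-group RPKM in a row was 0.906 and 1.04. Benjamini-Hochberg adjustment of the deposited p-values gave the q-values back to within 5.26e-07.

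Groups came from the sample titles. Rows without a symbol or with a date in its place (173 and 172) were left out by gene, which left 12247 and 11989 genes. Log2 ratios of summed RPKM were computed without a pseudocount in Python 3.11.15 with pandas 2.3.3, and the code was tested on simulated data. Transcripts were matched between tables when their mutant values differed by at most 0.05 (log2) from the usual offset; low pairs of Tk1 and Lig1 could be matched either way. Beyond the rule for named genes (called members, and in each role class the most abundant 2, the extremes in ratio and those with several transcripts of which 1 has p at or under 0.05; of the second list the called and extreme genes), all other members are given by level. The members and lists were chosen with earlier results of these data known.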

Additional observations from a re-analysis of the deposited data

How the results depend on the processing

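The deposited p and q were reused in every setting. At a q of 0.10 geminin stayed the one member called in the first comparison. None was called in the second, where the lowest q of a member was 0.127. Geminin has a single transcript, a q of 0.0286 and a level above 5 RPKM, so no setting here could remove its call. Keeping the most abundant transcript only, or genes with a mean of at least 5 RPKM, could add no call, so these settings are no check of the calls. At an unadjusted p of 0.05 the members called were 13 and 8 of 41 (mutant against heterozygote, then knock-in against mutant) and those of the second replication list 6 and 10 of 45, beside 10.9% and 14.6% of all genes. At a q of 0.10 that list had 1 and 1, both Atad5, beside 1.69% and 2.54% of all genes. With the most abundant transcript only, the members' median log2 ratio was 0.19 and -0.145 (35 and 10 genes above 0) and that of the second list 0.16 and -0.0464. With a pseudocount of 1 RPKM these medians were 0.22 and -0.16, and 0.14 and -0.10. Centred on all genes they were 0.20 and -0.16, and 0.11 and -0.10. No paired analysis was possible because the tables hold pooled values, with no value per sample, and for the same reason no replicate could be left out. Small differences are limited by the unknown depth and the 3 samples per group.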
